A study of Mus musculus with 8 samples.

Results

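Acetylation of histone H3 at lysine 27 (H3K27ac) was mapped in mouse testis cells of 2 stages, the pachytene spermatocyte (PS) and the round spermatid (RS), and the 4633 autosomal regions described here were distal H3K27ac regions of PS that had no counterpart in RS. They were chosen by peak calls alone. Intervals of the 2 PS replicates that shared at least 1 bp were merged and kept where both replicates had an interval, and the RS replicates were treated in the same way. A PS region entered when its strongest interval was annotated as intron or intergenic and no RS region overlapped it. This gave 2143 intronic and 2490 intergenic members of 10184 distal PS regions, and of 26333 PS regions of all classes on chromosomes 1 to 19. A further 5551 distal PS regions were kept in RS, and 7016 distal RS regions were gained, that is, had no PS counterpart. The H3K27ac libraries (2 for each stage) came from wild-type C57BL/6 adult males. The RNA-seq libraries (2 for each stage) came from PS and RS of Rnf8- and Scml2-dKO mice, which lack both Rnf8, a ubiquitin ligase of the DNA damage response, and Scml2, a germline Polycomb protein. Acetylation and RNA were thus measured in different genotypes, and wild-type RNA was not analysed here. In both experiments the cells had been enriched by sedimentation through BSA. For RNA, the methods describe preparing both stages from 1 male at a time, but the labels do not tie a sample to an animal.

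H3K27ac is carried by nucleosomes next to active promoters and active enhancers, and distal regions with the mark are widely used as candidate enhancers. Spermatocytes pass through pachytene in the long prophase of meiosis, when a large set of germline genes is transcribed. A-MYB, the product of Mybl1, is the transcription factor known as the main activator of pachytene genes and of the precursors of pachytene piRNAs. Spermatids are the haploid cells that follow meiosis and that build the acrosome and the sperm tail.

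The sequences around the strongest members are shown first, because the letters they share recurred in many other members. Each is the 300 bp around the strongest summit, from the plus strand of mm10, read from the RefSeq copy of GRCm38. Capitals mark AACTGNC, a MYB motif, where it was found on either strand. Each window is named after the gene that the deposited annotation pairs with the region, and all 6 regions were annotated as intergenic, with no GENCODE M21 exon or transcript start inside.

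Mtpn, chr6:35461928-35462227: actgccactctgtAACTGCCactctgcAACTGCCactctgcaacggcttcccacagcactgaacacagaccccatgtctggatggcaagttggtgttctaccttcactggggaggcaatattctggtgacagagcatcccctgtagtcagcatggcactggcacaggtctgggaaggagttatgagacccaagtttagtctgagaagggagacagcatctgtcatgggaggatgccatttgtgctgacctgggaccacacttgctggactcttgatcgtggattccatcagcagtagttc
4931408C20Rik, chr1:25915491-25915790: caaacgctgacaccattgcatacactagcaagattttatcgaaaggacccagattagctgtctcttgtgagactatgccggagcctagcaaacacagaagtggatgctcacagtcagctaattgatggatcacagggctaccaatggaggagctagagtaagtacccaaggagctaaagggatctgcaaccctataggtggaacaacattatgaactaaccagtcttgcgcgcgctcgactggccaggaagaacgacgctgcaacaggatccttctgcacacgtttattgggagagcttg
Olfr347, chr2:36694447-36694746: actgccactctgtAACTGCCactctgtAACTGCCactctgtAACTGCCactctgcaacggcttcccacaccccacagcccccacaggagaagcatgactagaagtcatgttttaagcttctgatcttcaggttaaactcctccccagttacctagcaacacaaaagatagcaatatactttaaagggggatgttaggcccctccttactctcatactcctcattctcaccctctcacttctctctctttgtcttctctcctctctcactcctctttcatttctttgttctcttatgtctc
St6galnac3, chr3:153068757-153069056: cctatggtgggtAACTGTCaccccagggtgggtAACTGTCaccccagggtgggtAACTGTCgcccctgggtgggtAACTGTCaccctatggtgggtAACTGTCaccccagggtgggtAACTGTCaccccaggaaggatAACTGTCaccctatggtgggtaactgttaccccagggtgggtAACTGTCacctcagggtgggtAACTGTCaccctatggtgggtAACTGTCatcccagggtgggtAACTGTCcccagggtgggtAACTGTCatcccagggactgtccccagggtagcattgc
Cntnap5a, chr1:114306587-114306886: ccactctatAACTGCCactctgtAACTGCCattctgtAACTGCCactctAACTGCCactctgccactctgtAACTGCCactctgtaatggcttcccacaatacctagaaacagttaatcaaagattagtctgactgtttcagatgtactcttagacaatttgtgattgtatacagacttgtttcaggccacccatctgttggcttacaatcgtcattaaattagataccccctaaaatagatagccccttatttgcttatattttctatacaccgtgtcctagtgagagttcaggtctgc
Dab2ip, chr2:35515918-35516217: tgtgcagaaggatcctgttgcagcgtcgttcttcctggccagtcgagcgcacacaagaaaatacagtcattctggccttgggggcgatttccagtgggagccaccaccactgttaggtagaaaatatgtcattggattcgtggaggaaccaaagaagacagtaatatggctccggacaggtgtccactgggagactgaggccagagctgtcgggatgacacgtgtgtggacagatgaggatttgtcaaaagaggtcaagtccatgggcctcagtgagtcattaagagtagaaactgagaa

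The windows near Mtpn, Olfr347, St6galnac3 and Cntnap5a held 2, 3, 12 and 5 copies of AACTGNC. The windows near Mtpn and Olfr347, which lie on different chromosomes, shared an unbroken run of 30 bases, and those near Olfr347 and Cntnap5a a run of 28. The windows near 4931408C20Rik and Dab2ip held no copy and shared a run of 50 bases on opposite strands. The share of the window that the reference marks as repeat was 0 near St6galnac3, 74.7% near Olfr347 and the whole window near 4931408C20Rik.

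These regions had high fold enrichment in both PS replicates. Some of the windows were largely repeat or shared runs of bases. The part of repeated sequence in fold enrichment was not tested, for these or for other members. Fold enrichment, the height of a summit over 1 background constant for its own library, is the measure of strength here. Near Mtpn it was 49.0 in PS replicate 1 and 49.3 in PS replicate 2, in an interval of 2533 bp that lay 75.5 kb from the gene's start. Near 4931408C20Rik it was 42.8 and 54.8, and near Olfr347 41.6 and 47.7. Near St6galnac3 it was 42.4 and 46.0, near Cntnap5a 35.8 and 47.7, and at the stronger of a pair of neighbouring regions near Dab2ip 41.2 and 40.01. The next members in rank were the other region near Dab2ip (38.3 and 42.2), one near Sox14 (34.6 and 46.6), one in an intron of A830018L16Rik (35.4 and 45.5) and one near 4933438B17Rik (37.5 and 42.8). Here near names the deposited pairing, not a short distance. The start of the paired gene lay 772 kb from the member for 4931408C20Rik, 655 kb for St6galnac3 and 1377 kb for Cntnap5a. It lay 407 kb away for A830018L16Rik, 602 kb for 4933438B17Rik and 110.5 kb for Sox14. Another gene's start was nearer for 4931408C20Rik (Bai3, 85.6 kb), St6galnac3 (St6galnac5, 85.7 kb), Olfr347 (Olfr346, 6.39 kb) and Sox14 (Cldn18, 46.1 kb). The loss was not always complete. Of the 10 strongest members, that near Olfr347 had no RS interval in either replicate. That near Dab2ip with 41.2-fold had one in RS replicate 2 alone, with a fold enrichment of 5.22. The other 8 had one in RS replicate 1 alone, with fold enrichments from 3.66 to 5.29.

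The letters GGCAGTT, the other strand of which is AACTGCC and which AACTGNC includes, are a MYB motif. They were found on either strand of the 300 bp window in 751 of 4633 members (16.2%). The share was 5.39% of kept distal regions and 3.79% of gained distal regions. It was 5.36% of lost and 3.52% of kept promoter regions, 4.13% of 31365 RefSeq promoters of the same length, and 3.43% of 9266 windows 2 kb to either side of the members' own summits. With the wider letters AACTGNC, added after the windows of the strongest members had been seen, the shares were 32.2% of members, 15.9% of kept, 14.3% of gained and 12.95% of flanking windows. Leaving out each H3K27ac sample in turn gave 11.5 to 17.6% of members with GGCAGTT, and 4.79 to 6.95% of kept regions. These are descriptions, since regions within a genome are not replicates, and a match is not evidence of binding.

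The share with GGCAGTT rose with the strength of the member. With the members divided by fold enrichment into 4 groups of equal size, it was 10.96% in the weakest, 13.04% and 15.8% in the next groups and 25.04% in the strongest, and in 4 such groups of kept distal regions it was 4.25% in the weakest and 7.71% in the strongest. Among the 108 members with at least 20-fold enrichment in both PS replicates, 47 held the letters (43.5%), against 34 of 281 kept distal regions of that strength (12.1%). The members with the letters had a median fold enrichment of 6.17 and 7.13 in PS replicates 1 and 2, and those without 5.35 and 5.48. The letters were as frequent in introns (15.7%) as between genes (16.6%). On single chromosomes the share ranged from 12.2 to 20.3% of members and from 1.45 to 10.7% of kept regions. It was 15.2% in members under 50% repeat and 23.4% in those of at least 50% repeat, where the kept regions had 5.77% and 3.11%.

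**Figure D1:**
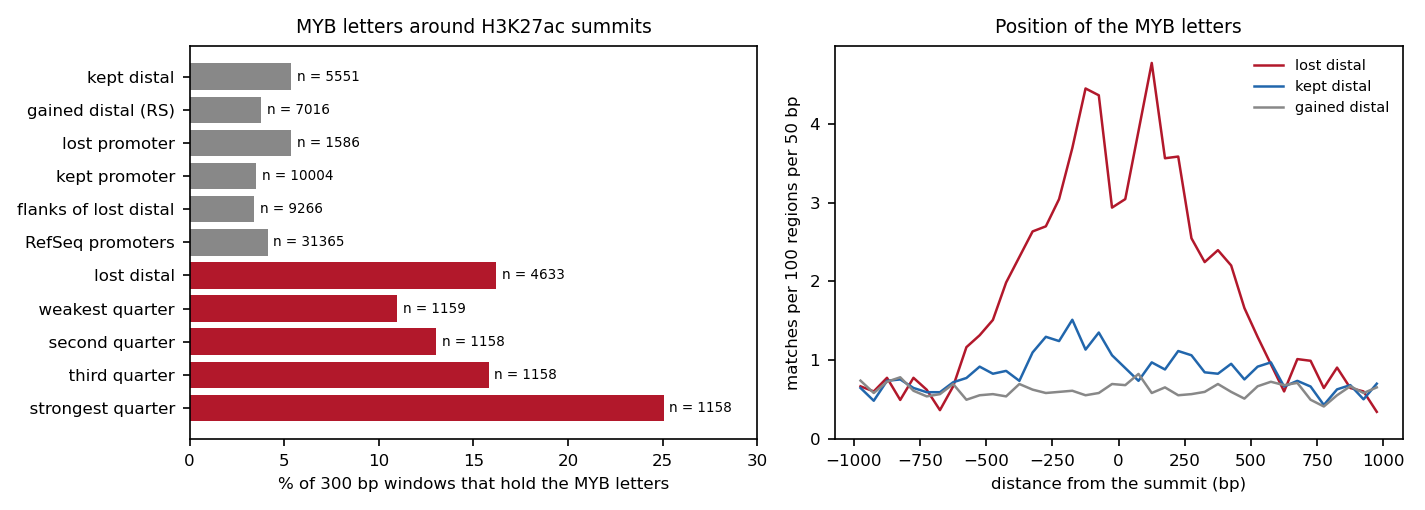
The left panel shows the percentage of 300 bp windows that hold GGCAGTT on either strand, with the number of windows beside each bar and lost distal regions in red, also split into 4 groups by strength. The right panel plots the number of matches per 100 regions in bins of 50 bp against the distance from the summit, with 2 maxima in the lost regions about 100 bp to either side and 4.77 matches per 100 regions in the highest bin.

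The matches were placed close to the summits. Within 250 bp of the summit there were 3.73 matches per 100 members and 50 bp, against 0.774 at 500 to 1000 bp, a ratio of 4.83. The ratio was 1.58 in kept and 1.02 in gained distal regions. These values count matches, not regions, so a region with several copies weighs more than once. At least 2 copies stood in the 300 bp window of 167 members (3.60%) and 22 kept regions (0.396%). The bins from 100 to 150 bp on both sides had 4.45 and 4.77 matches per 100 members, and the bin just downstream of the summit had 3.04, so the matches were fewer at the summit itself than beside it. The plot of matches by distance shows this dip in the members and an almost flat line in the gained regions.

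Some windows held many copies. At least 3 copies of GGCAGTT were present in 80 members (1.73%), 2 kept regions (0.0360%), 0 gained regions and 8 flanking windows (0.0863%). The 80 members had median fold enrichments of 15.4 and 17.0 in the PS replicates. In 48 of them the window was at least 50% repeat, against 589 of all 4633 members (12.7%). The copies near Mtpn stood in a unit whose first 13 bases were AACTGCCactctg. These bases were found in 125 members (2.70%), 6 kept (0.108%) and 0 gained distal regions. They were also found in 4 lost (0.252%) and 0 kept promoter regions, and in 14 RefSeq promoters (0.0446%). The unit was read from the strongest member, so its presence there was given. The 125 members lay on all 19 autosomes near 114 genes, and 104 of them were intergenic. Their median fold enrichment was 15.2 and 17.0 in the PS replicates, with a range from 4.38 to 49.3 over both. Of the 125, 101 had no RS interval in either replicate, against 3170 of all 4633 members (68.4%).

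All places of this unit on the autosomes were then compared with all H3K27ac regions, with matches at most 300 bp apart counted as 1 place. There were 514 places. Of 173 places with a single copy, 21.4% overlapped a PS region of any class and 5.20% an RS region. Of 132 places with 2 copies, 75.8% overlapped a PS region and 6.82% an RS region. Of 209 places with 3 or more copies, 193 overlapped a PS region (92.3%) and 19 an RS region (9.09%). Members accounted for 122 of the 209. Among the 1000 strongest regions of each set, 23.5% of members shared an unbroken run of 30 bases with another member's window, against 13.1% of kept and 16.3% of gained regions.

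Several other motifs had similar shares in members, kept and gained distal regions. The nuclear receptor letters AGGTCA were found in 20.3% of members, 20.1% of kept and 19.9% of gained distal regions. The AP-1 letters TGANTCA were found in 9.07%, 8.76% and 9.35%, the GATA letters AGATAA in 13.4%, 12.9% and 14.5%, and the NFY letters CCAAT in 34.0%, 30.7% and 33.1%. The SP/KLF letters GGGCGG, typical of CpG-rich promoters, were in 8.18% of members, 9.85% of kept and 4.33% of gained distal regions, and in 47.6% of kept promoter regions. Other motifs were less even. The NRF1 letters GCGCATGCG were in 35 members (0.755%), 23 kept (0.414%) and 4 gained regions (0.0570%) and in 1 flanking window, a larger ratio of members to gained regions than that of GGCAGTT, on few regions. The E box letters CACGTG were in 5.46%, 4.88% and 3.48% of members, kept and gained regions. RFX, CRE and CTCF letters were in under 1.1% of members, kept and gained regions. The median GC content of the window was 48.7% in members, 49.3% in kept and 47.7% in gained regions, and 44.7% in the flanks.

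Loss was common among distal regions. Of intergenic PS regions 47.0% were lost and of intronic ones 43.9%, against 35.5% of exonic, 39.2% of upstream and 13.7% of promoter regions. On single chromosomes 40.4 to 49.4% of the distal regions were lost. The members had a median fold enrichment of 5.35 and 6.03 in PS replicates 1 and 2, and the kept regions 5.76 and 6.03. The median over the members of the geometric mean of both replicates was 5.46, against 5.70 in kept regions. Across members, log2 fold enrichment in one replicate followed that in the other with r = 0.872 (Pearson) and rho = 0.746 (Spearman), over regions that share their libraries and are not independent. Peak calls defined the members, so these values carry no test.

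The share lost varied little over most of the range of strength and was lower among the strongest regions. With the distal PS regions divided by fold enrichment into 10 groups of equal size it lay between 43.4 and 49.6% in the first 9 and was 36.1% in the strongest. Promoter regions differed: 51.6% of the weakest of 10 such groups was lost and 0.604% of the strongest. Of distal PS regions with at least 10-fold enrichment in both replicates 39.01% were lost, of those with at least 20-fold 27.8% (108 lost and 281 kept), and of those with at least 30-fold 18.8% (25 lost and 108 kept). Width also differed between the sets, but the rule itself favours this. A region that shared 1 bp with an RS region was kept, and a wider region meets one more easily. The members had a median width of 613 bp and the kept regions 698 bp, and 109 members (2.35%) were at least 2 kb wide, against 507 kept regions (9.13%). Of the widest of 10 groups of distal PS regions by width 21.7% were lost.

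**Figure D2:**
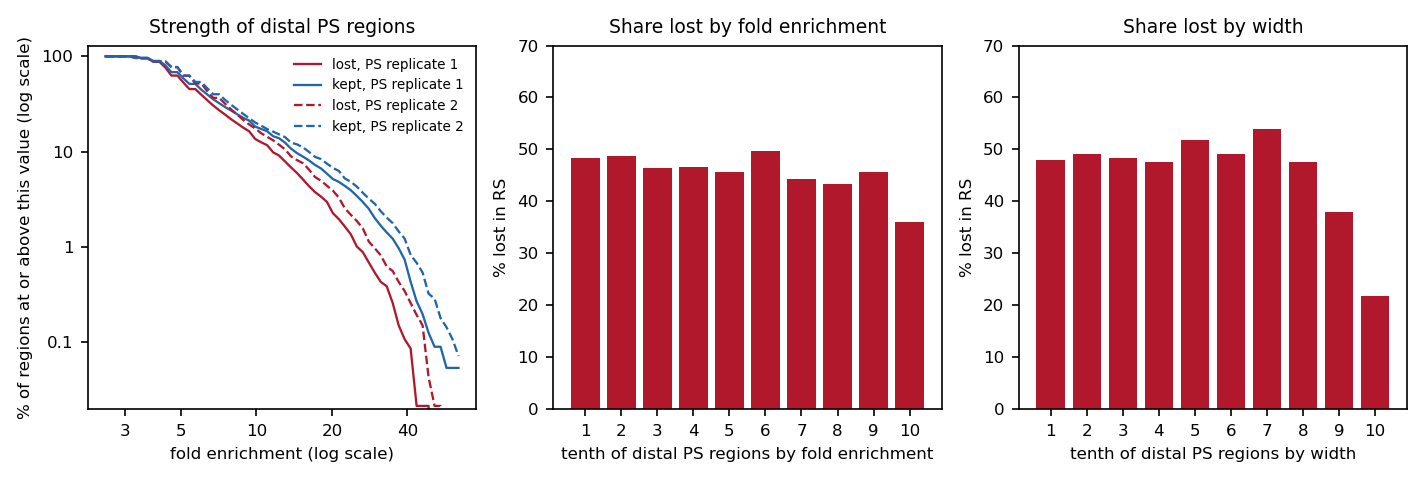
The left panel shows the percentage of lost (red) and kept (blue) distal PS regions at or above each fold enrichment in PS replicate 1 (solid) and 2 (dashed), on log axes. The other panels show the percentage lost in RS in 10 equal groups of the 10184 distal PS regions ordered by fold enrichment and by width, from the lowest to the highest, with 36.1% and 21.7% in the highest groups.

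What remained in RS differed between its libraries. RS replicate 1 had 72928 autosomal intervals and RS replicate 2 had 44726. In 3170 members (68.4%) neither replicate had an interval, in 1371 (29.6%) RS replicate 1 alone, in 47 RS replicate 2 alone, and in 45 both had intervals that did not overlap each other. Where RS replicate 1 had one, its median fold enrichment was 4.07, the same as over all its intervals, and the highest was 10.99. The share with no RS interval was 76.4% in the weakest of the 4 strength groups of members and 57.4% in the strongest, and 38 of the 108 members of at least 20-fold. In the 3170 members with no RS interval 17.6% held GGCAGTT, and in the 1371 with an RS replicate 1 interval alone 13.1%. The part of depth in the loss was not tested, since the depth of these libraries is unknown. The median gap to the nearest RS region was 30911 bp. At the border of the rule, 5 members lay within 20 bp of an RS region, the closest at 2 bp, with median fold enrichments of 4.53 and 4.38. The 4 kept regions that overlapped an RS region by at most 20 bp had 4.53 and 4.93.

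Clustering was counted within each set. At a gap of at most 10 kb, 26.5% of members had another member as a neighbour, 43.2% of kept distal regions had another kept region, and 35.6% of gained regions another gained one. Leaving out PS replicate 1 or 2 moved the share of members to 52.2% or 44.2%, and that of kept regions to 66.5% or 62.6%. There were 19 clusters of at least 5 members. The cluster with the most members held 16 in 28.7 kb at chr9:54214479-54243219, paired with Gldn, which encodes gliomedin of myelinated nerves. Its members covered 21871 bp with fold enrichments of up to 18.9 and 23.0, no RS region lay within it, and 10 of its members had an RS replicate 1 interval. The next held 15 members at chr10:86566509-86593835, near the noncoding RNA gene 1810014B01Rik, and 12 members at chr10:85752057-85768468, near Pwp1. Each of these also held 1 kept region. Clusters of 11 members lay near Gm21269 (chr7:73778692-73803504) and Tspan11 (chr6:127813250-127835568), and one of 10 near Stox1 (chr10:62669665-62692667). The 7 members near Mucl1 (chr15:103827723-103847746) were the strongest among the clusters, with medians of 15.2 and 15.9, and none had an RS interval. GGCAGTT was held by 17.4% of members alone at 10 kb and by 9.88% of those in clusters of at least 5.

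**Figure D3:**
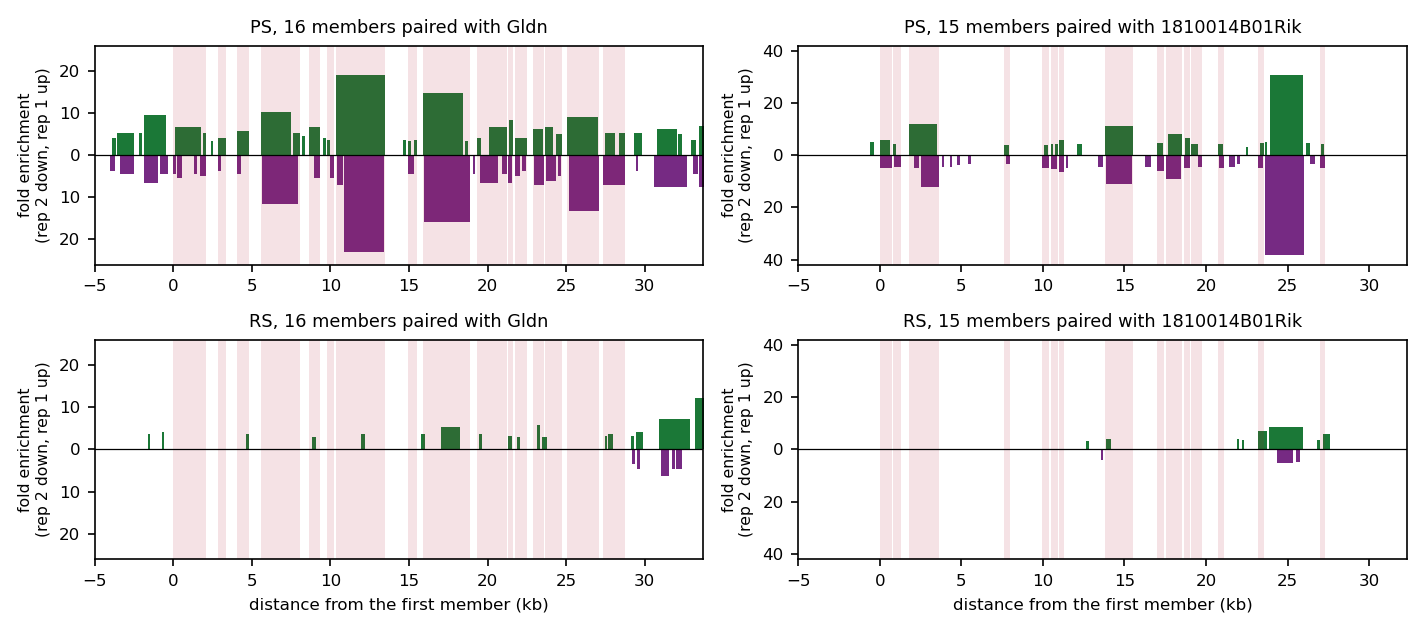
H3K27ac intervals at the clusters with the most members, in PS (upper row) and RS (lower row), with fold enrichment of replicate 1 drawn upward in green and of replicate 2 downward in purple against the distance from the first member in kb. Pale red bands mark the members, 16 near Gldn and 15 near 1810014B01Rik, and the unshaded tall interval at about 25 kb in the right panels is the kept region.

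Besides the intronic members, which lie within genes, the members were intergenic. For all members, the median distance to the nearest RefSeq start was 43.6 kb, against 37.0 kb for kept and 37.9 kb for gained distal regions, and 686 members (14.8%) lay within 10 kb. GENCODE M21, a fuller annotation than the RefSeq models of the files, placed a transcript start inside 319 members (6.89%), against 966 kept (17.4%) and 529 gained regions (7.54%). In 149 members such a start belonged to a long noncoding RNA. The deposited annotation paired the members with 2953 genes, of which 2022 had 1 member, 562 had 2, 290 had 3 or 4, and 79 had 5 or more. The paired gene had the nearest start for 58.6% of members. At 41.7% of the paired genes a promoter region of H3K27ac was kept in RS, at 9.18% one was lost, and at 49.2% none was called in PS in both replicates. Of the 14167 autosomal genes tested for RNA, 7752 had a kept promoter region, 944 a lost one and 5471 none. Only 2219 of the 2953 paired genes were tested for RNA, so the 2 sets are not alike.

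RNA of the paired genes was compared between RS and PS of the dKO, which the peak calls did not use. edgeR's quasi-likelihood test was fitted on 14647 genes, and a gene was called at a Benjamini-Hochberg adjusted p of at most 0.05 and a change of at least 1.5-fold. Of 14167 autosomal genes tested, 29.3% were called higher and 28.5% lower in RS, with a median log2 change of -0.038. Of 2219 tested genes paired with a member, 723 were higher (32.6%) and 565 lower (25.5%), with a median of 0.13. Genes near regions lost in RS were thus called higher in RS somewhat more often than lower, and near the background in both directions. Genes paired with kept regions had 37.6% higher and 23.1% lower, and genes paired with gained regions 38.8% and 23.2%. Of 8864 genes with no distal region, 25.5% were higher and 31.2% lower. In bulk samples, fewer cells of a type and less RNA per cell cannot be told apart. With 2 samples against 2, an exact permutation test of a single gene cannot go below a two-sided p of 0.333, and the labels do not tie the samples to animals.

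Many paired genes had other distal regions as well. Those paired with members and with neither kept nor gained regions numbered 1262, of which 918 were tested, with 253 higher (27.6%), 241 lower (26.3%) and a median of 0.012. Where the promoter region of such a gene was kept, 105 of 487 were higher (21.6%) and 160 lower (32.9%), with a median of -0.19. All genes with a kept promoter region had 25.3% and 32.5%. Where it was lost, 29 of 93 were higher (31.2%) and 13 lower (13.98%), against 25.3% and 21.1% of all genes with a lost promoter region, at a median of 0.846 RPKM in PS. Where no promoter region was called in PS, 119 of 338 were higher (35.2%) and 68 lower (20.1%), against 35.6% and 24.1% of all such genes. This split by promoter was added after the data had been seen. Genes with 1, 2, 3 or 4, and 5 or more members were higher in 31.8%, 32.9%, 37.8% and 33.8% and lower in 25.4%, 28.1%, 20.4% and 24.6%. Genes with a member of at least 10-fold in both PS replicates were higher in 35.9% and lower in 22.8%. Genes with a member that held GGCAGTT were higher in 31.2% and lower in 27.7%, and the other paired genes 33.0% and 24.8%. Where a member lay at most 50 kb from the gene's start, 28.3% were higher and 28.2% lower, with a median change of -0.054. The sign of the median thus changed with this limit, to a value close to the -0.038 over all autosomal genes tested. The part of distance was not tested.

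**Figure D4:**
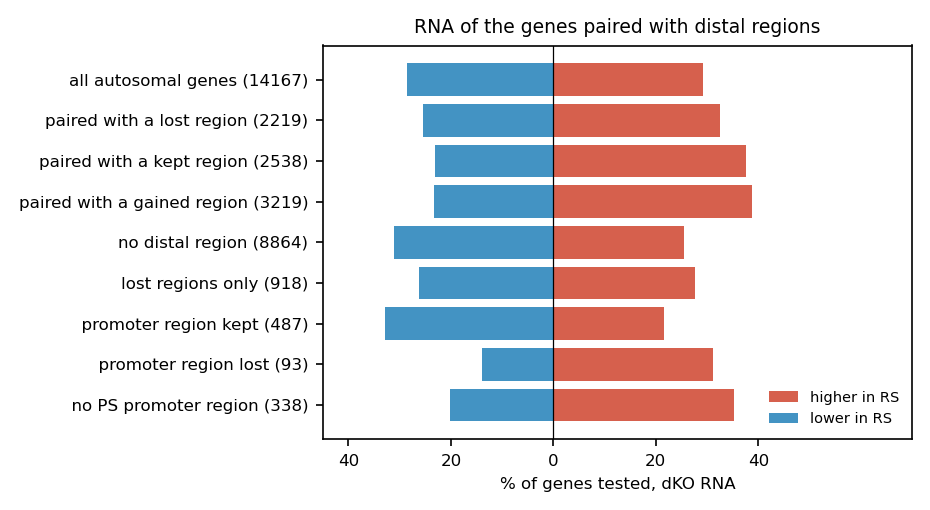
Percentage of tested autosomal genes called higher (red, to the right) and lower (blue, to the left) in dKO RS than in PS, by the distal regions a gene is paired with, with the number of genes tested in brackets and the last 3 bars dividing the genes with lost regions only by their promoter region. Genes paired with a lost region had 32.6% and 25.5%, all autosomal genes 29.3% and 28.5%, and genes with lost regions only and a kept promoter region 21.6% and 32.9%.

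Of the 266 tested genes with at least 3 members, 155 were called and had no overlap in RPKM between the stages, 98 higher (36.8%) and 57 lower (21.4%) in RS, against 29.3% and 28.5% of all tested autosomal genes by the same criteria. The largest fall was that of the noncoding RNA gene Gm21269, paired with the cluster of 11 members, the nearest of them 22.4 kb from its start. The gene lies at chr7:73825924-73836549. It had 88.3 and 99.3 RPKM in the PS replicates and 1.67 and 2.68 in the RS replicates, and fell by 5.41 on the log2 scale (SE 0.25, edgeR adjusted p = 3.29e-06). Its promoter region was lost too, and no kept or gained distal region was paired with it. Speer1-ps1, Gm21221 and Gm10324 may have near-identical copies, among which uniquely aligned reads may be dropped or split, so their values are uncertain. Neither these nor the other named genes were checked for copies. Speer1-ps1 had 35.1 and 42.0 RPKM in PS and 1.81 and 2.07 in RS. Chst1, a sulfotransferase of keratan sulfate, had 72.7 and 66.0 RPKM in PS and 3.28 and 4.75 in RS, with 8 members, 14 kept and 1 gained distal regions and a kept promoter region. It fell by 4.08 (SE 0.19, edgeR adjusted p = 3.29e-06). Gm21221 had 3.52 and 3.02 RPKM in PS and 0.266 and 0.158 in RS, from at most 43 reads. Stox1, a winged-helix protein, had 4.92 and 2.67 RPKM in PS and 0.115 and 0.465 in RS.

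The largest rises are given for called genes with at least 3 members only, and were not ranked among all genes. Dab2, an adaptor of clathrin-mediated endocytosis, had 5 members of up to 28.0- and 32.3-fold enrichment. Its RNA was 0.198 and 0.141 RPKM in PS and 2.45 and 2.504 in RS, a log2 change of 4.34 (SE 0.35, edgeR adjusted p = 1.66e-05). Grin2b, a subunit of the NMDA receptor, had 0.0585 and 0.132 RPKM in PS and 1.33 and 1.76 in RS, with 3 members and 3 gained regions. Cdc14a, a phosphatase, had 3.52 and 4.09 RPKM in PS and 49.98 and 44.2 in RS, with 4 members and no other distal region (log2 change 3.67, SE 0.16, edgeR adjusted p = 3.29e-06). 4931408C20Rik, which is paired with the member of 42.8- and 54.8-fold enrichment, had 0.365 and 0.353 RPKM in PS and 4.74 and 3.999 in RS, and that member lay 772 kb from its start. 1700009N14Rik had 21.6 and 33.8 RPKM in PS and 318 and 348 in RS, but its nearest member lay 401 kb away.

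**Figure D5:**
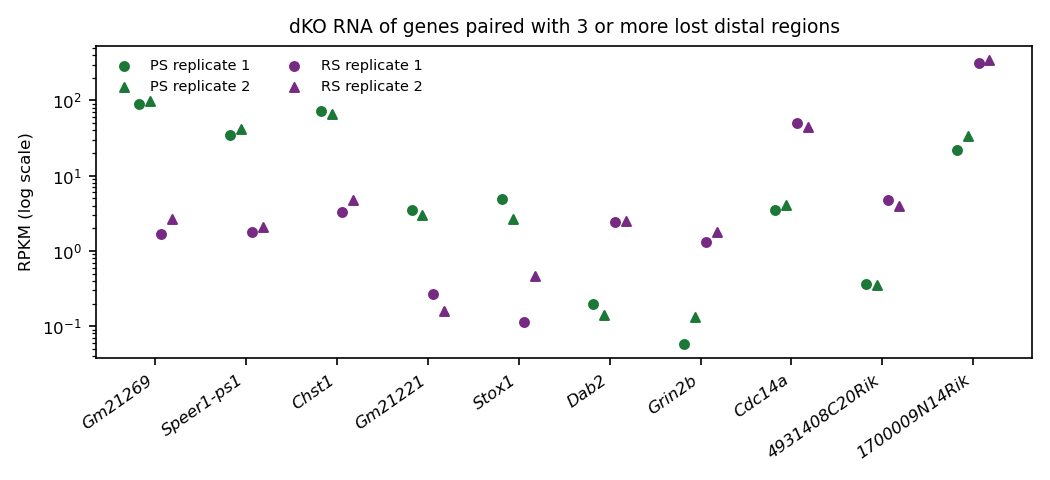
RPKM (log axis) in the 4 dKO RNA samples, PS in green and RS in purple, replicate 1 as circles and replicate 2 as triangles, for the genes with the largest falls (left, from Gm21269 to Stox1) and rises (right, from Dab2 to 1700009N14Rik) among genes paired with at least 3 lost distal regions. The stages do not overlap in any of the 10, since the genes were selected on this, and Gm21269 goes from 88.3 and 99.3 to 1.67 and 2.68.

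The genes of the other strong members and of the other clusters behaved in no single way. Mtpn, a regulator of actin capping, had 11.8 and 11.6 RPKM in PS and 10.5 and 10.8 in RS, with no call (log2 change -0.089, SE 0.14, edgeR adjusted p = 0.594). Olfr347, an olfactory receptor, and Sox14, a transcription factor, had 0 reads in all 4 samples. St6galnac3 had 3 to 17 reads and A830018L16Rik 0 to 2 reads, and neither was tested. Cntnap5a was called higher on 2 and 3 reads in PS and 16 and 10 in RS. Dab2ip, which restrains Ras signalling, had 4.86 and 3.90 RPKM in PS and 5.41 and 6.73 in RS, with no call (edgeR adjusted p = 0.0684). 4933438B17Rik was called higher, with 2.19 and 3.02 RPKM in PS and 6.39 and 5.62 in RS. Gldn, with 19 members, was called lower at 1.34 and 1.68 RPKM in PS and 0.707 and 0.603 in RS, a call that was lost without RS replicate 2 (edgeR adjusted p = 0.0999). Kcnk10, a potassium channel with 17 members, was called lower, with 1.14 and 0.640 RPKM in PS and 0.113 and 0.134 in RS. Pwp1, with 13, was called lower, with 29.5 and 25.9 RPKM in PS and 10.5 and 8.56 in RS. Soga2 and Tspan11, with 12 and 11, were called higher, by 0.60 and 1.51 on the log2 scale, Tspan11 on 5 to 16 reads. DESeq2 made neither call (adjusted p = 0.147 and 0.199), nor that of Cntnap5a (0.127). Gm10324 with 17 members and Xrcc6bp1 with 11 were not called, 1810014B01Rik with 19 had 3 to 5 reads, and B130024G19Rik with 11 had none.

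Few members were paired with well-known genes of either stage. Of all tested autosomal genes, 15.7% were paired with a member. Of 38 tested meiotic prophase genes 9 were higher and 13 lower in RS, and 2 were paired with a member, namely Smc1b, a meiotic cohesin (81.7 and 66.8 RPKM in PS, 85.4 and 92.4 in RS, no call), and Ythdc2, a helicase of meiotic entry (11.03 and 6.09, then 4.50 and 5.05, called lower, a call lost without any of 3 samples in turn). Of 20 tested piRNA pathway genes 1 was higher and 12 lower, and the 2 with members were both lower. Tdrd1, a tudor protein of germ granules, had 122 and 112 RPKM in PS and 8.00 and 9.44 in RS, with 1 member 7.499 kb from its start. Tdrd3 had 26.6 and 25.7 RPKM in PS and 15.6 and 16.3 in RS. Of 43 tested spermatid genes 32 were higher and 1 lower, and 2 had members. Spaca7, an acrosomal protein gene, was called higher with 8.99 and 18.3 RPKM in PS and 103 and 110 in RS, and Spata16, also acrosomal, was not called.

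Of 40 tested transcription factors of germ cells 13 were higher and 8 lower, and among the 10 with members 4 were higher and 4 lower. Hsf2, a heat shock factor with 4 members, was higher (8.13 and 6.45 RPKM in PS, 27.9 and 28.0 in RS), and so was Rfx3, a factor of ciliary genes with 2 (1.40 and 1.21, then 5.98 and 5.61). Yy1, with 3 members, was lower (23.1 and 23.4, then 7.20 and 8.18), and Rara, the retinoic acid receptor with 4, was not called. Of 30 tested genes in a list of acetyltransferases, deacetylases, bromodomain proteins and Cdyl, 6 were higher and 11 lower. The list was not limited to genes that act on H3K27ac. Hdac9, a deacetylase gene with 3 members and at most 47 reads in a sample, and Cdyl, a chromodomain corepressor with 1, were higher by 2.65 and 3.17. Brd3 was not called. Mybl1, named because of the motif and after its values were seen, had no member. It fell by 1.24 on the log2 scale, from 32.6 and 25.8 RPKM in PS to 11.7 and 12.31 in RS (SE 0.15, edgeR adjusted p = 0.000144). Of its relatives, Mybl2 had 0.901 and 2.21 RPKM in PS and 2.43 and 3.51 in RS with no call, and Myb had at most 1 read in a sample. The log2 change of Mybl2 was 0.96 (edgeR adjusted p = 0.0604). Without the filter on low counts Mybl2 was called higher (edgeR adjusted p = 0.0223). Leaving out 1 RNA sample in turn gave log2 changes of 0.41 to 1.80 for Mybl2.

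Of the targeted genes, Rnf8 had 93 and 110 reads in PS and 61 and 50 in RS, was called lower (edgeR adjusted p = 0.0066) a call lost without RS replicate 1 (0.0707) or RS replicate 2 (0.0848), and had 1 member. Scml2 had 40 and 92 in PS and 44 and 98 in RS. No wild-type sample stands beside them, and whether the reads lie outside the deleted parts is not known, so they do not check the genotype. The RNA samples had 9655405 to 12289694 reads on genes. All 12 pachytene and all 12 spermatid markers were detected in every sample, with summed RPKM of 1617 to 1679 and 531 to 897 in PS, and 818 to 860 and 14094 to 14831 in RS. Markers of Leydig cells and macrophages moved with the stage. The 6 Leydig cell markers summed to 547 to 729 RPKM in PS and 42.6 to 68.3 in RS, and 6 of 6 were called lower. The 3 macrophage markers found of 4 listed summed to 1.98 to 2.88 in PS and 34.3 to 40.1 in RS, and 3 of 3 were called higher. The 10 Sertoli markers summed to 33.8 to 72.0 in PS and 28.6 to 45.0 in RS, with 1 or 2 of them at 0 in each sample. Most of this sum was Clu (57.9 and 27.04 in PS, 28.1 and 14.5 in RS), which was not called, while of the 5 autosomal markers tested Wt1 and Vim were called higher and none lower, and the X-linked Rhox5 was called higher. The 10 spermatogonial markers summed to 48.7 to 68.6 in PS and 54.7 to 58.2 in RS, and the 4 peritubular markers to 4.70 to 5.60 over all samples. The Leydig gene Cyp11a1 and the Sertoli gene Clu had 1 member each, and 2 of the spermatogonial markers had members and were called higher. The part of these cells in the changes of the paired genes was not tested, and the acetylation libraries have no RNA of their own to check for them.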

How the data were processed

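H3K27ac was profiled by ChIPmentation. Per the submitters' processing notes, alignment to mm10 used Bowtie 1.1.1 and peak calling MACS2 2.1.0.20140616, run for each sample separately. The deposited lists give for each summit the pileup (a signal), the fold enrichment (a ratio to 1 background constant per sample, 0.723 to 1.46 fragments), -log10 p and q values, the region class and the nearest gene. Read totals are not used here, so the depth is unknown beyond 38519 to 72928 autosomal intervals per sample.

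For RNA, the authors amplified with the Ovation system, aligned with STAR 2.4.2a, kept unique alignments and split reads between RefSeq isoforms by expectation maximization. They deposited read counts without normalization and RPKM scaled for length and library size. The strand setting is not given in the sources used here. Isoforms were summed to genes, counts were rounded, and genes with at least 10 reads in at least 2 samples were tested with edgeR 4.0.16 (quasi-likelihood, TMM, R 4.3.3). SEs are the log2 change divided by the square root of F. On simulated counts of 14295 genes, 93 changed by 2-fold and 97 by 4-fold, edgeR called 46.2% and 97.9% of these, and 8 of 14105 others. The simulation gave every gene the same dispersion and changed few genes, while 8497 were called in the data. Its shares therefore do not carry over to the real fit.

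Regions were built and windows searched in Python 3.11.15 (numpy 2.4.6, pandas 2.3.3). Motifs were counted on both strands, and matches may overlap between motifs. Genes were named by rule: those of the 10 strongest members, the 10 with the most members, the 5 largest falls and rises among called genes with at least 3 members whose stages do not overlap, the targeted genes, and up to 4 per gene list with the most members. Mybl1, Mybl2 and Myb were named after their values were seen. DESeq2 1.42.0, other peak thresholds, other overlap rules, no count filter and leaving out each sample were tried as alternatives. Members and lists were chosen with earlier results of these data known. Samples were grouped by the assay, cell type, genotype and replicate number in their titles. A result for 1 gene that the rule names is not reported here.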

Additional observations from a re-analysis of the deposited data

How the results depend on the processing

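The alternatives for the motif shares, the letters AACTGNC and the split by promoter were added after seeing the data. Region counts depend on requiring both replicates. With PS regions of either replicate there were 13463 members, with a median geometric mean fold enrichment of 4.38, a median width of 244 bp, 54.5% in clusters, 11.02% with GGCAGTT and 25.4% with AACTGNC. With intervals of a -log10 p of at least 5 the median enrichment was 6.17 and the width 735.5 bp, with at least 4-fold enrichment 6.16 and 728 bp (GGCAGTT 17.3%), and with equal numbers of strongest intervals 5.82 and 669 bp. Where no RS interval of either replicate was allowed, they were 5.33 and 562 bp, with 17.6% and 34.7% for the 2 motifs. A gap of 50 kb put 40.5% of members in clusters. The number of members stayed within 1.5 times under the settings that keep both PS replicates. Leaving out each H3K27ac sample gave 3221 to 11504 members (7953 without PS replicate 2 and 11504 without PS replicate 1), enrichments of 4.38 to 5.46, widths of 244 to 603 bp, 22.6 to 52.2% in clusters, 11.5 to 17.6% with GGCAGTT and 26.03 to 34.6% with AACTGNC. In each of these settings the kept distal regions had lower motif shares (4.79 to 7.0% for GGCAGTT), a larger share in clusters and a larger width and enrichment.

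In a setting by replicate number (the replicate block), PS and RS regions of each number were compared on their own and the results averaged. For regions this was not a fit, and it dropped the need for an interval in both replicates, as leaving out a PS sample does. It gave 9006.5 members, with an enrichment of 4.46, a width of 243.5 bp and 45.2% in clusters. The motifs were in 12.6% and 27.8%. The labels number the replicates but do not say that a number marks a shared animal or day. The deviations of same-numbered samples correlated at 0.139 in RNA (9013 genes) and 0.004 in H3K27ac (18395 regions), and 2 pairs do not settle it. The block in edgeR gave 748 paired genes higher and 575 lower, and changed the call of no named gene except Mybl2 (log2 change 1.04, edgeR adjusted p = 0.0043).

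The paired genes called were 524 to 785 higher and 398 to 541 lower when each RNA sample was left out, with medians of 0.09 to 0.21, a lone sample being assumed to vary like the rest, and all genes called 6039 to 8654 (3128 to 4671 higher, 2911 to 3983 lower). Members at most 50 kb from the start gave 362 higher and 360 lower, from fewer genes, and turned the median to -0.054. No filter on low counts gave a median of 0.25, against 0.12 over all autosomal genes. Leaving out 1 sample turned the uncalled changes of Mtpn (-0.12 to 0.016), Gm10324 (-0.95 to 0.048), Scml2 (-0.77 to 0.77, with 0.62 in another case) and Rara (-0.10 to 0.37). Ythdc2, Tdrd3, Rnf8 and Soga2 also lost their calls without a single sample. Over named genes and settings, 239 of 261 values kept direction and call, 13 lost the call, 4 gained one and 5 changed sign. The number of reads limits genes such as Cntnap5a and Gm21221, and the unknown read totals limit what the absence of an RS interval shows.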
